A study of Mus musculus with 12 samples.

Results

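The effect of anti-PD-1 plus anti-CTLA-4 on a melanoma growing in the brain was compared between mice that carried the brain tumor alone and mice that also carried a tumor outside the brain. The quantity described for each gene is the interaction, which is the difference of both therapy effects on the log2 scale: the therapy minus IgG difference where both tumors were present, less the same difference where the intracranial tumor was alone. It uses 12 of the 12 RNA-seq libraries of the series, in 4 groups of 3, and all genes, of which 15925 of 47069 in the read count table had enough reads to be tested. An interaction above 0 means that the therapy effect was more positive, or less negative, where the extracranial tumor was present. A gene is said to be called higher or lower where the interaction had a Benjamini-Hochberg adjusted p under 0.05 over all tested genes in the quasi-likelihood test of edgeR.

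The tumors were B16 F1, a pigmented mouse melanoma line, grown in C57BL/6 mice from 100000 cells placed in the brain and collected at day 9. Every group carried this intracranial tumor. The groups were intracranial tumor only with IgG, the control antibody; intracranial tumor only with anti-PD-1 plus anti-CTLA-4, called therapy below; intracranial and extracranial tumor with IgG; and intracranial and extracranial tumor with therapy. The place of the extracranial tumor, the antibody doses and the age of the mice are not given in the sources used here, all tumors derive from 1 cell line, and the labels give no batch, litter or pairing, so that p-values measure only the spread between these samples.

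PD-1 and CTLA-4 are inhibitory receptors of T cells, and antibodies against them release T cells from that inhibition. Activated T cells and NK cells secrete interferon gamma, which raises antigen presentation genes and chemokines that attract further T cells. A tumor taken from the brain can also hold neurons, glia, vessels and microglia, the resident macrophages of the brain, and in RNA from whole tissue fewer cells of a type and less RNA per cell cannot be told apart.

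Library totals ran from 18427495 to 22294182 reads. Levels are given as CPM, the read count scaled to the TMM-adjusted library total, in replicate order within a group, and the level of a gene list is the mean log2 CPM of its members. Replicate numbers are not in the labels and follow the order of the samples in the series. The melanoma genes Dct, at 7625 to 10786 CPM, and Pmel, at 4802 to 7850 CPM, were abundant in every library. Both IgG groups held 1 library unlike its replicates. IgG replicate 2 with both tumors, whose sample name in the labels has another suffix than the rest, lay at -115 on the first principal component of log2 CPM against 35.6 and 54.6 for its replicates, and beside the intracranial-only therapy libraries at -104, -113 and -95. Replicate 2 of the intracranial-only IgG mice had an interferon gamma response list at 6.70 against 1.31 and 1.58. Since the interaction takes the IgG level off each therapy level, values without these 2 libraries are given beside the results whose call or size rests on them.

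The interaction was called for 3505 genes, which is 22.0% of the genes tested, and 6281 genes had an unadjusted p under 0.05. Of these calls 1924 were higher (12.1%) and 1581 lower (9.93%). The higher calls were large, with a median interaction of 3.93 on the log2 scale, and 942 of them exceeded 4. The lower calls were small, with a median of -0.87, and 3 exceeded 4 in size. The smallest adjusted p was 0.0321 and many genes share it. With 1 library left out at a time edgeR called 0 genes in 8 of 12 cases, as given with the libraries' names at the end, since the smallest adjusted p then lay between 0.0526 and 0.0669. Over all tested genes the median interaction was 0.04.

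The fitted therapy effects of the called genes mostly had opposite signs. Picking genes by a large difference of both effects itself favors opposite signs, and neither effect was called on its own. Among the 1924 genes called higher, the fitted therapy effects pointed in opposite directions in 1920, with a median of -2.29 for therapy in intracranial-only mice and 1.46 where both tumors were present. The intracranial-only side was the larger in 1266 of them. Among the 1581 genes called lower the medians were 0.27 and -0.61, and the intracranial-only side was the larger in 66. The effect of the extracranial tumor under IgG had a median of -0.06 in the first set and 0.05 in the second. Most of the size of the higher calls thus lay on the intracranial-only side, and most of the size of the lower calls on the side with both tumors.

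**Figure D1:**
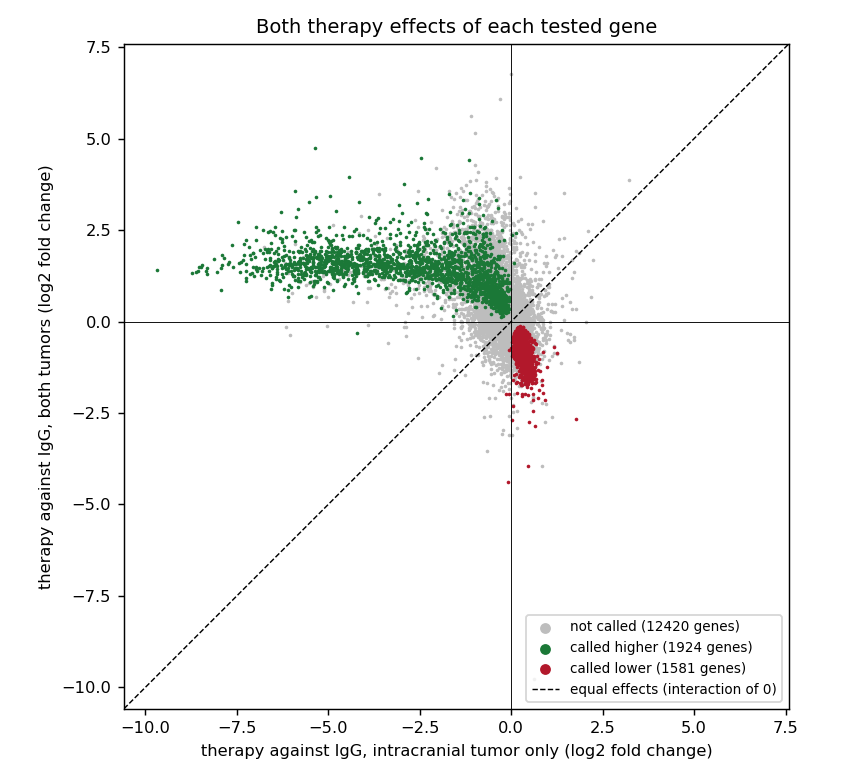
Log2 fold change of therapy over IgG without (horizontal axis) and with (vertical axis) the extracranial tumor, 1 point per tested gene, with 1924 genes called higher in green, 1581 called lower in red and 12420 not called in grey. The green points spread far to the left and lie above 0 on the vertical axis, while the red points lie close to 0 on the horizontal axis and below 0 on the vertical axis.

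Without replicate 2 of each IgG group, 1674 of 16283 tested genes were called (10.3%), 1410 higher (8.66%) and 264 lower (1.62%). Of the higher calls made with all 12 libraries 1308 were still called, and of the lower calls 262. So the larger part of the higher calls was made without these libraries too, and most lower calls were not. The loss of a call does not show that the difference was lost. Of 20 mitosis genes 0 were called lower then, yet all 20 had an unadjusted p under 0.05 in edgeR, with a median of -1.53.

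Genes of brain cells were the ones with the largest interactions. All 13 tested neuron markers were called higher, with a median of 6.78, and 11 of 12 oligodendrocyte markers, with a median of 7.12, or 6.43 with genes of 3 or fewer reads in a group set to 3 reads over the group. Without the 2 IgG libraries the same counts were 13 and 11 and the medians 6.61 and 6.87. The astrocyte list had 7 of 12 called higher, with a median of 2.71, and 2.34 without the 2 libraries. The neuron list level was 4.40, 3.34 and 4.57 in IgG libraries of intracranial-only mice and 0.56, -0.56 and -0.96 with therapy. In mice with both tumors it was 4.27, -0.11 and 4.77 with IgG and 4.31, 6.03 and 5.82 with therapy. The 3 intracranial-only therapy libraries and IgG replicate 2 with both tumors were thus low in neuron markers, and the other 8 libraries were high.

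Snap25 encodes a protein of the machinery that fuses synaptic vesicles with the neuron's membrane. It read 72.1, 24.9 and 88.5 CPM in intracranial-only IgG libraries, 2.16, 0.384 and 0.507 CPM with therapy, 66.4, 1.26 and 119 CPM in IgG libraries with both tumors, and 60.9, 228 and 207 CPM with therapy. Therapy libraries lay below all IgG libraries in intracranial-only mice, whereas in mice with both tumors the ranges overlapped. The interaction was 7.35 ± 1.74 (SE here and below; adjusted p = 0.0321, edgeR), and 7.16 without the 2 IgG libraries. Slc17a7, which loads glutamate into synaptic vesicles, had an interaction of 7.72 ± 1.79. Gad1, an enzyme that makes the inhibitory transmitter GABA, had 5.38 ± 1.36. Markers of both excitatory and inhibitory neurons were therefore called. Tubb3, a neuronal tubulin, had the smallest interaction of the list at 1.91 ± 0.34, and it was at 86.8 CPM or more in every library.

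Mag, an adhesion protein of the myelin sheath, read 11.8, 5.06 and 13.9 CPM in intracranial-only IgG libraries and 0.442, 0.219 and 0.368 CPM with therapy. In mice with both tumors it read 7.61, 0.657 and 21.6 CPM with IgG and 53.6, 26.5 and 59.7 CPM with therapy. The therapy group was below IgG in 1 setting and above it in the other, without overlap in either. Its interaction was 7.10 ± 1.36 (adjusted p = 0.0321, edgeR). Mog, a protein of the myelin surface, had 8.73 ± 1.79. Mbp, another myelin protein, was the oligodendrocyte gene that was not called, at 1.63 ± 0.59 and an adjusted p of 0.0669 in edgeR, and it read 149 CPM or more in every library.

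Gfap, the intermediate filament of astrocytes, read 191, 158 and 287 CPM in intracranial-only IgG libraries, 16, 19.9 and 12.6 CPM with therapy, 193, 19 and 240 CPM with IgG and both tumors, and 364, 516 and 726 CPM with therapy and both tumors. The ranges were again separate within each setting. The interaction was 5.54 ± 0.99 (adjusted p = 0.0321, edgeR) and 5.19 without the 2 IgG libraries. Aqp4, the water channel of astrocyte endfeet, had 4.08 ± 0.66 and Slc1a2, a glutamate transporter, 7.53 ± 1.70. Gja1, a gap junction protein that many cell types make, was not called at 0.16 ± 0.27, and its CPM stayed between 41.9 and 66.9 in intracranial-only mice.

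**Figure D2:**
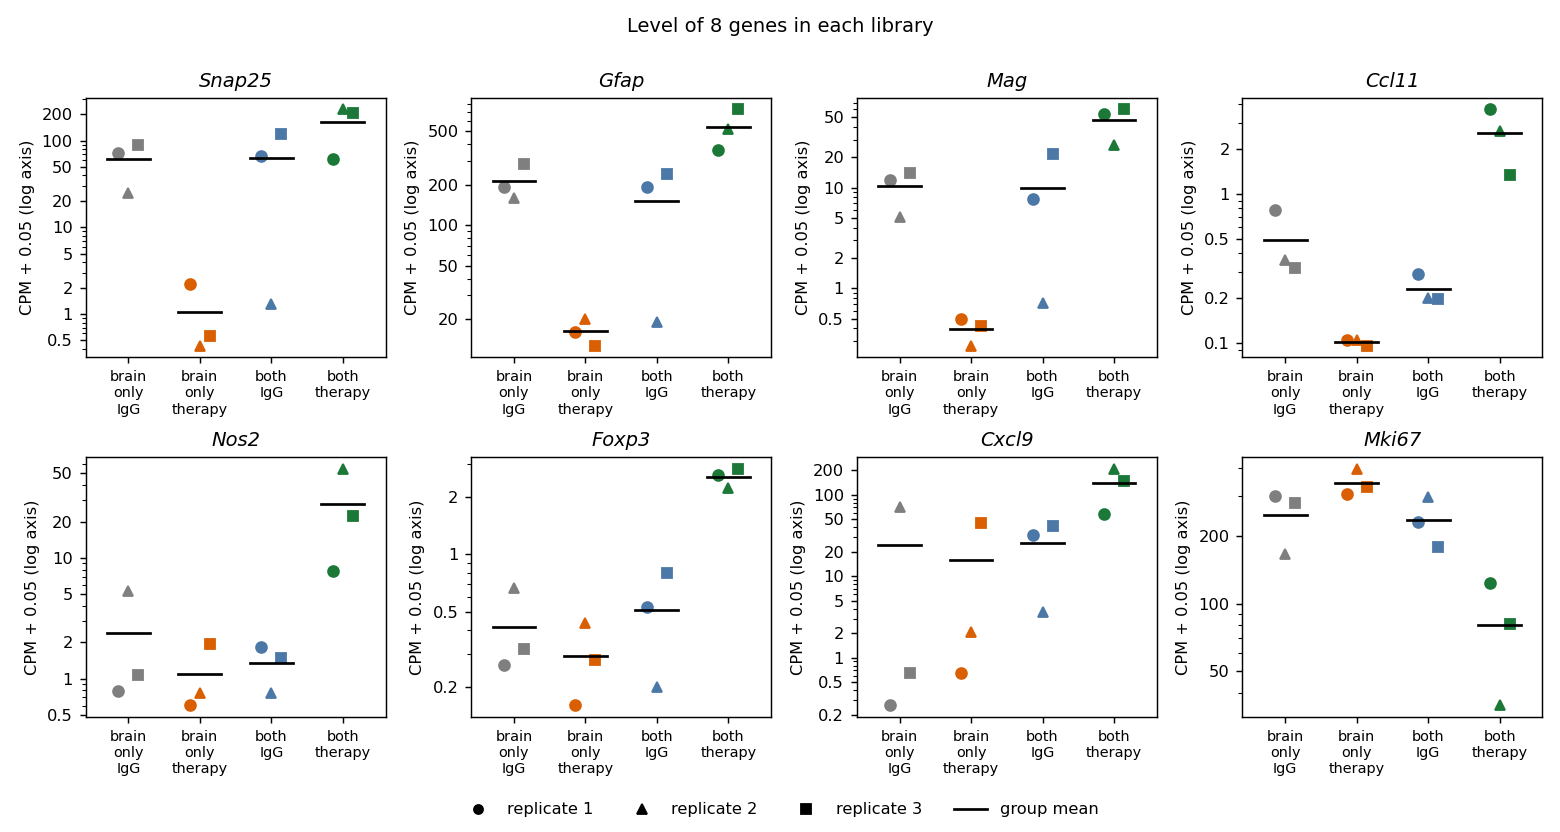
CPM plus 0.05, on a log axis, of 8 genes in the 12 libraries, by group, with symbols for the replicates and a line at the mean of the group. Snap25, Gfap and Mag are low in the intracranial-only therapy libraries and in IgG replicate 2 with both tumors, Ccl11, Nos2 and Foxp3 are highest in the 3 therapy libraries with both tumors, Cxcl9 has a high library in each intracranial-only group, and Mki67 is lowest in the therapy libraries with both tumors.

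The 10 largest interactions among called genes with at least 1 CPM in a group were in genes with 0 or 1 read in the intracranial-only therapy group, most of them known from neurons or glia. Miat, a long noncoding RNA on chromosome 5 (GRCm38, 112213228 to 112229395), had 288 reads over the intracranial-only IgG libraries and 0 with therapy, so that it was at least 97.8-fold higher with IgG, taking 3 reads over the group as the floor. It read 6.6, 0.101 and 8.87 CPM with IgG and both tumors and 4.82, 24.9 and 11.5 CPM with therapy and both tumors, which overlap. The same floor gave at least 50.9-fold for Cnih3, which accompanies AMPA receptors, 44.8-fold for Hapln2, a matrix protein at nodes of Ranvier, and 44.1-fold for Otud7a, a deubiquitinase. It gave at least 42.8-fold for Jakmip2, 41.8-fold for the calcium channel subunit Cacna2d3, 33.6-fold for the amino acid transporter Slc7a10 and 21.4-fold for the neural transcription factor Sox1. Lmo3, with 522 reads against 1, and Syndig1l, with 55 against 1, had ratios of 532 (95% interval 95 to 21045) and 56 (9.65 to 2253), where the floors and intervals cover counting error only. Of these 10 genes, Syndig1l also differed most in mice with both tumors, at 0.0479, 0 and 0.545 CPM with IgG and 9.96, 1.34 and 4.87 CPM with therapy.

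Microglia followed the same order of groups at a smaller size. The list of homeostatic microglia, genes that mark resting microglia, had 8 of 11 called higher, with a median of 3.18, and 5 called with a median of 2.56 without the 2 IgG libraries. Its level was 2.23, 2.71 and 2.48 in intracranial-only IgG libraries and 0.85, 0.97 and 0.55 with therapy, then 2.73, 0.63 and 3.57 with IgG and 3.72, 4.26 and 4.71 with therapy in mice with both tumors. The therapy libraries with both tumors were the highest 3 of the 12. Olfml3, a secreted microglial protein, read 8.48, 12.8 and 10 CPM, then 7.41, 4.22 and 4.51 CPM with therapy, in intracranial-only mice. With both tumors it read 7.8, 6.72 and 13.1 CPM with IgG and 19, 36.7 and 51.6 CPM with therapy, and the interaction was 2.91 ± 0.55 (adjusted p = 0.0321, edgeR). Cx3cr1, the receptor for the neuronal chemokine fractalkine, had 4.03 ± 1.28 and P2ry12, a receptor with which microglia sense nucleotides, 3.07 ± 0.88. P2ry12 was not called without the 2 IgG libraries, at 2.54.

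Macrophage genes were called in part. Of 14 monocyte and macrophage genes 6 were called higher, with a median of 2.92: Nos2, Cd68, Csf1r, Itgam, Cd14 and Arg1. Without the 2 IgG libraries 2 were called and the median was 0.80, and the median was 1.15 without the intracranial-only IgG replicate 2 alone. Nos2, which makes nitric oxide in activated macrophages, read 0.737, 5.26 and 1.02 CPM in intracranial-only IgG libraries and 0.553, 0.712 and 1.89 CPM with therapy, against 1.77, 0.707 and 1.44 CPM with IgG and 7.68, 54.3 and 22.2 CPM with therapy in mice with both tumors. All 3 therapy libraries with both tumors lay above the other 9. Its interaction was 5.56 ± 1.28 (adjusted p = 0.0321, edgeR) and 3.83 without the 2 IgG libraries, where it was not called (adjusted p = 0.066, edgeR). Arg1, the arginase of alternatively activated macrophages, had 4.63 ± 1.48, and 2.50 with no call without them. Mrc1, a mannose receptor of tissue macrophages, was at -0.05 ± 0.94 and not called, and it reached 23.6 and 23.7 CPM in intracranial-only therapy libraries.

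The complement list, proteins that tag targets for phagocytes, had 5 of 13 called higher and a median of 2.63, or 2 and 1.70 without the 2 IgG libraries. The called genes included C3 and the 3 chains of C1q. C3, the central component, read 21.3, 45.4 and 10.6 CPM and, with therapy, 11.6, 16.8 and 19.8 CPM in intracranial-only mice, and 25.4, 10.7 and 33.6 CPM and, with therapy, 103, 153 and 117 CPM in mice with both tumors. The last 3 values exceed all others. Its interaction was 3.10 ± 0.72 (adjusted p = 0.0321, edgeR), and 2.06, still called, without the 2 IgG libraries. The neutrophil list had 1 of 5 called, Csf3r, the receptor for the growth factor of granulocytes, at 4.02 ± 1.09, and at 2.62, still called, without the 2 IgG libraries. Csf3r was low in the libraries low in the neuron list, at 0.83, 0.767 and 0.691 CPM in intracranial-only therapy libraries. In IgG libraries with both tumors it read 2.68, 0.404 and 5.16 CPM, while the neutrophil list level was -0.77, -0.72 and -0.88. Which cells made Csf3r was not tested. Among 7 eosinophil genes Siglecf was the only one tested. It was called at 5.61 ± 1.81 (adjusted p = 0.049, edgeR), and it was above 1 CPM in the 3 therapy libraries with both tumors, at 2.45, 5.02 and 3.12 CPM, and in no other library. It stood at 4.22 without the 2 IgG libraries and was not called (adjusted p = 0.141, edgeR).

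T cell genes had high medians but few calls. Of 15 T cell identity genes 1 was called higher, Lat, and the median was 3.43. The median was 0.35 without intracranial-only IgG replicate 2, 5.54 without intracranial-only therapy replicate 3 and -0.05 without the 2 IgG libraries. The share called, here and in the cytotoxic, checkpoint and chemokine lists, was below the 12.1% called higher over all tested genes. The list level was 2.34, 3.21 and 3.26 in the therapy libraries with both tumors and at most 1.26 in the other 9, which ranged down to -2.06. Within intracranial-only mice the highest IgG library, replicate 2, stood at 1.26 and the highest therapy library, replicate 3, at 0.46, with all others at or below -1.78. Lat, the adaptor that links the T cell receptor to its signalling chain, read 2.63, 4.7 and 3.38 CPM and, with therapy, 1.44, 2.63 and 2.39 CPM in intracranial-only mice, and 3.68, 1.72 and 5.45 CPM and, with therapy, 9.87, 10.4 and 11.3 CPM in mice with both tumors. Its interaction was 2.26 ± 0.57 (adjusted p = 0.0321, edgeR) and 1.68 without the 2 libraries. Lat was at 2.63 and 3.38 CPM in intracranial-only IgG replicates 1 and 3, where Cd3e was at 0 CPM. Its reads there need not come from T cells.

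Cd8a, the coreceptor of cytotoxic T cells, was high in 1 library of each intracranial-only group. It read 0.105, 3.3 and 0.215 CPM in intracranial-only IgG libraries, 0.166, 0.11 and 2.12 CPM with therapy, 1.72, 0.152 and 2.28 CPM with IgG and both tumors, and 7.77, 23.4 and 20.7 CPM with therapy and both tumors. The last group lay above the rest. The interaction was 4.20 ± 1.88 with an adjusted p of 0.123 (edgeR), and 0.77 without the 2 IgG libraries. Cd3e, a chain of the T cell receptor complex, stood at 3.43 ± 2.25 with all libraries and at -4.03 without intracranial-only IgG replicate 2, a fitted value that rests on 0 reads in the remaining IgG libraries of that group. Cd4, which helper T cells, macrophages and microglia carry, stood at 2.01 ± 1.28.

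The cytotoxic effector list had 1 of 13 called, Cst7, and a median of 4.08, which was -0.70 without intracranial-only IgG replicate 2 and 7.23 without intracranial-only therapy replicate 3. Cst7, a protease inhibitor that microglia also make, was called at 5.28 ± 1.64 (adjusted p = 0.0448, edgeR). Granzyme B, Gzmb, read 0.0527, 27 and 0 CPM and, with therapy, 0.221, 0.164 and 10.3 CPM in intracranial-only mice, and 7.03, 0.404 and 3.12 CPM and, with therapy, 10.1, 69.6 and 47.4 CPM in mice with both tumors. The IgG library at 27 CPM lay above 1 of the therapy libraries with both tumors. Its interaction was 4.91 ± 2.76 (adjusted p = 0.208, edgeR), and -3.21 without intracranial-only IgG replicate 2. Ifng, interferon gamma itself, stood at 3.71 ± 2.38, and at -3.36 without that library, again with 0 reads in the remaining IgG libraries. The NK cell list had 0 of 6 called, 0 with an unadjusted p under 0.05, and a median of 3.02 that was -2.49 without that library and 5.45 without intracranial-only therapy replicate 3.

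Of 8 tested regulatory T cell genes 2 were called higher, and of 12 checkpoint receptors 1, beside 12.1% called higher over all tested genes. Foxp3, the transcription factor that defines regulatory T cells, read 0.211, 0.619 and 0.269 CPM in intracranial-only IgG libraries, 0.111, 0.384 and 0.23 CPM with therapy, 0.479, 0.152 and 0.744 CPM with IgG and both tumors, and 2.55, 2.19 and 2.76 CPM with therapy and both tumors. The last group was narrow and above all others. The interaction was 3.02 ± 0.86 (adjusted p = 0.0362, edgeR), and 2.01 without the 2 IgG libraries, where it was not called. Ikzf4, another factor of that lineage, had 2.70 ± 0.81, and the list of 8 tested genes a median of 2.69. The list held 0 calls and a median of 0.85 without the 2 IgG libraries, and the median was 1.29 without intracranial-only IgG replicate 2 alone. Among 12 checkpoint receptors Layn, a hyaluronan receptor found on exhausted and regulatory T cells, was called at 2.57 ± 0.48 (adjusted p = 0.0321, edgeR), and the median was 3.0. Layn read 1.69, 1.34 and 1.4 CPM in intracranial-only IgG libraries, where Cd3e read 0, 3.25 and 0 CPM. Its level did not follow Cd3e there, and which cells made it was not tested. Layn was still called at 2.50 without the 2 IgG libraries, whereas the median was 1.48. Pdcd1, which encodes PD-1, stood at 3.99 ± 1.85 (adjusted p = 0.136) and Ctla4 at 4.10 ± 2.17 (adjusted p = 0.182), both in edgeR, with all 3 therapy libraries with both tumors above the other 9 in both genes. With the 2 IgG libraries left out Pdcd1 stood at 0.36 (adjusted p = 0.938) and Ctla4 at -2.69 (adjusted p = 0.502, edgeR).

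No gene of the interferon and antigen presentation lists was called by edgeR. In the interferon gamma response list 0 of 18 were called and 1, Ido1, had an unadjusted p under 0.05, and the median was 3.03. The list level was 1.31, 6.70 and 1.58 in intracranial-only IgG libraries, 1.43, 2.36 and 6.03 with therapy, 5.41, 2.58 and 5.34 with IgG and both tumors, and 6.22, 8.07 and 7.66 with therapy and both tumors. Therapy libraries with both tumors were above their own IgG libraries, but each intracranial-only group had a library above 6. Without intracranial-only IgG replicate 2 the median was -0.80, and without intracranial-only therapy replicate 3 it was 6.03, so that its sign or size changed with single libraries of these groups. The type I interferon list had 0 of 17 called, the MHC class I list 0 of 13 and the MHC class II list 0 of 7, with 0 at an unadjusted p under 0.05 in each. Their medians were 2.88, 2.52 and 4.08 with all libraries and -0.60, -0.23 and -0.93 without the 2 IgG libraries.

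Cxcl9, an interferon-induced chemokine that attracts T cells, read 0.211, 71 and 0.591 CPM, then 0.608, 2.03 and 44.6 CPM with therapy, in intracranial-only mice, and 32.4, 3.59 and 41.4 CPM, then 58.2, 207 and 148 CPM with therapy, in mice with both tumors. Its interaction was 3.01 ± 2.47, and -2.88 without intracranial-only IgG replicate 2. B2m, the light chain of MHC class I, stood at 2.42 ± 1.36 and H2-Aa, a chain of MHC class II, at 4.23 ± 2.41. Neither was called, and without the 2 IgG libraries they stood at -0.07 and -1.26.

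**Figure D3:**
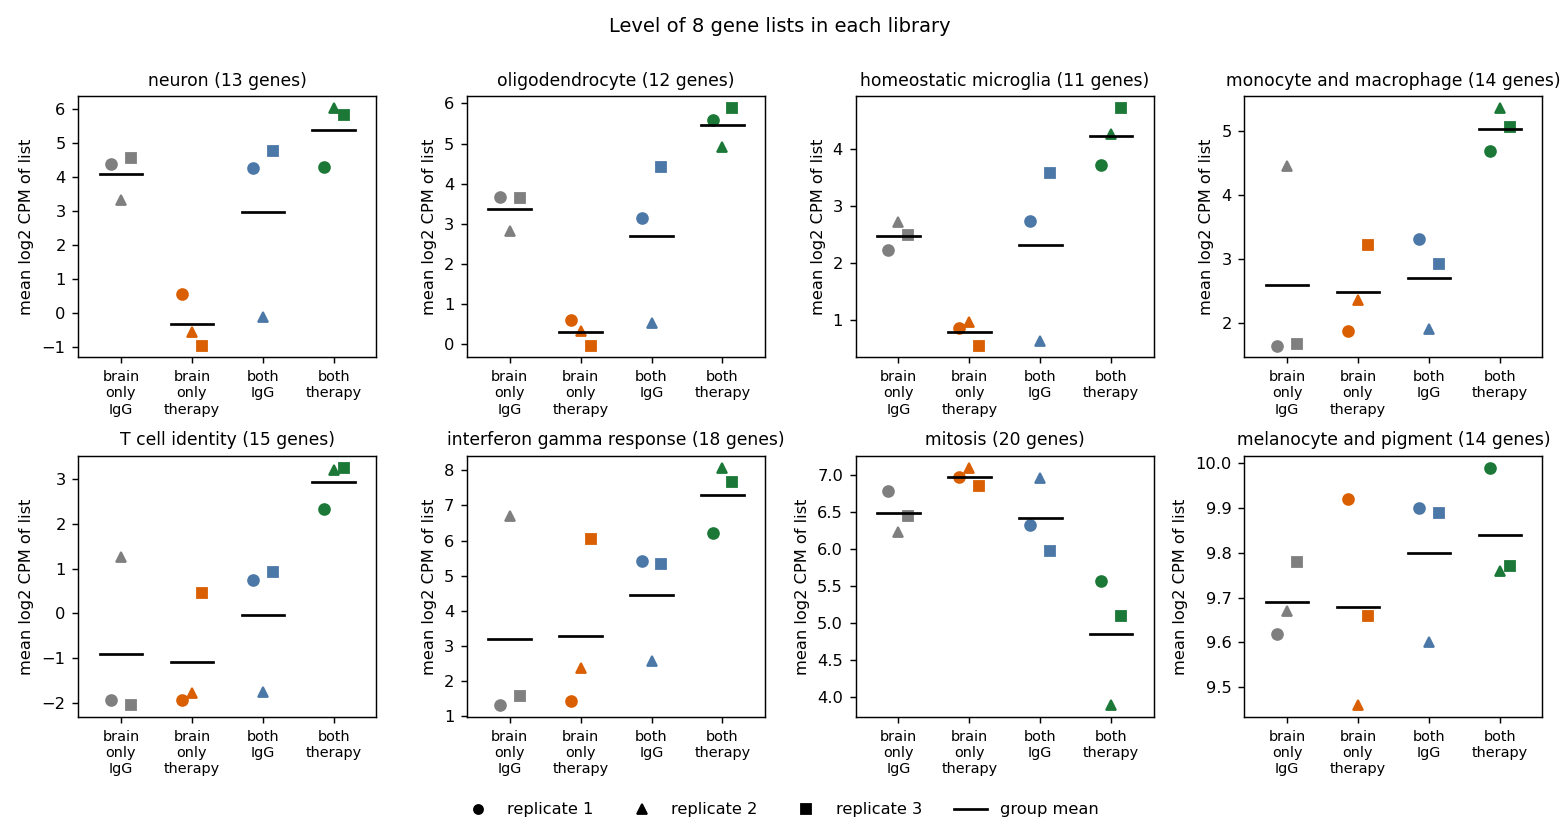
Mean log2 CPM of 8 gene lists in each of the 12 libraries, by group, with symbols for replicates and a line at the group mean. Neuron, oligodendrocyte and microglia lists are low in all 3 intracranial-only therapy libraries and in IgG replicate 2 with both tumors, whereas in the T cell and interferon gamma lists replicate 2 of intracranial-only IgG and replicate 3 of intracranial-only therapy stand above their replicates.

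Ccl11 was the 1 gene called among 15 chemokines, whose median was 3.55, and 0.75 without the 2 IgG libraries. The median was 1.22 without intracranial-only IgG replicate 2 alone. Ccl11, also known as eotaxin, attracts eosinophils and lies on chromosome 11 (GRCm38, 82057823 to 82062955). It read 0.737, 0.31 and 0.269 CPM in intracranial-only IgG libraries, 0.0553, 0.0548 and 0.0461 CPM with therapy, 0.239, 0.152 and 0.149 CPM with IgG and both tumors, and 3.64, 2.59 and 1.29 CPM with therapy and both tumors. Both therapy groups were separate from their IgG groups, on opposite sides. The interaction was 6.69 ± 0.84 and had the smallest unadjusted p of all tested genes, 8.46e-06 (adjusted p = 0.0321, edgeR). The intracranial-only therapy group held 3 reads in all against 25 with IgG, a ratio of 8.49 with a 95% interval of 2.59 to 43.9 from counting error. Without the 2 IgG libraries the interaction was 6.78. It was called in 12 of 21 alternatives, and their adjusted p ran from 3.36e-05 to 0.911.

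Receptors by which leukocytes enter tissue gave 2 higher calls and 1 lower among 15 genes, shares near the 12.1% and 9.93% over all tested genes. When the 2 IgG libraries were left out 1 was called, S1pr1, and the list median was 0.10 against 2.64 with all libraries. Cxcr4, the receptor for the chemokine Cxcl12, had an interaction of 2.78 ± 0.68, and S1pr1, a sphingolipid receptor of lymphocytes, endothelium and astrocytes, 2.51 ± 0.65 (adjusted p = 0.0321 for each, edgeR). Itga4, the integrin chain that binds Vcam1, was called lower at -1.09 ± 0.33 (adjusted p = 0.0422). It read 61.4, 41.1 and 57.4 CPM and, with therapy, 67, 86.1 and 61.3 CPM in intracranial-only mice, and 60.9, 81.3 and 55.6 CPM and, with therapy, 46.1, 29.3 and 49.4 CPM in mice with both tumors. Its therapy libraries were the higher ones in the first setting, apart from 1 overlap, and the lower ones in the second. Itga4 was at 61.4 and 57.4 CPM in intracranial-only IgG replicates 1 and 3, where Cd3e was at 0 CPM. Which cells its reads came from was not tested. Cxcr3, the receptor for Cxcl9, was not called at -0.85 ± 0.41. With the 2 IgG libraries left out Cxcr4 stood at 2.16 (adjusted p = 0.0656) and Itga4 at -0.76 (adjusted p = 0.144, edgeR), neither called.

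Of 9 genes for adhesion of leukocytes to endothelium, 2 were called higher, Cd34 at 1.10 ± 0.26 and Ackr1 at 5.21 ± 1.41, and the median was 1.75. Over all tested genes 12.1% were called higher, and 8.66% without the 2 IgG libraries. Ackr1 was still called without the 2 IgG libraries, Cd34 was not (0.92, adjusted p = 0.0546, edgeR), and the median was 0.60. The median was 0.74 without intracranial-only IgG replicate 2 alone. Ackr1, a chemokine-binding receptor of venules, read 2.05, 2.63 and 1.56 CPM and, with therapy, 0.0553, 0.493 and 0.138 CPM in intracranial-only mice, and 2.39, 0.0505 and 3.27 CPM and, with therapy, 4.46, 8.45 and 10.8 CPM in mice with both tumors. It was thus low in the same 4 libraries as the neuron genes. Vcam1, which binds the integrin of Itga4, was not called at 2.89 ± 1.19 (adjusted p = 0.0971, edgeR), with 22.9, 58.8 and 66.8 CPM in therapy libraries with both tumors against at most 12.3 CPM elsewhere, and it stood at 1.83 without the 2 IgG libraries. Among 13 genes of endothelial cells 4 were called higher, with a median of 1.09 and with 4 called without the 2 IgG libraries. They included Slco1c1, a thyroid hormone transporter of the blood-brain barrier, and Cldn5, a tight junction protein, at 3.59 ± 0.92. Pecam1, the member with the smallest p, was also called, at 1.11 ± 0.23 (adjusted p = 0.0321, edgeR). It was still called without the 2 IgG libraries, at 1.03. The general endothelial gene Cdh5 stood at 0.23 ± 0.29.

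Genes of dividing cells went the other way, and all of them together. All 20 mitosis genes were called lower, with interactions between -2.35 and -1.71 and a median of -1.96. Of 18 DNA replication genes 16 were called lower, with a median of -1.69, and of 12 genes for ribosome biogenesis 10 were, with a median of -1.03. The mitosis list level was 6.79, 6.23 and 6.45 in intracranial-only IgG libraries and 6.98, 7.10 and 6.86 with therapy, and 6.33, 6.96 and 5.98 with IgG and 5.57, 3.89 and 5.09 with therapy in mice with both tumors. Therapy libraries were above all IgG libraries in intracranial-only mice and below them in mice with both tumors. Without the 2 IgG libraries the medians were -1.53, -1.34 and -0.74, every gene of the 3 lists had an interaction below 0, and 0, 2 and 1 were called by edgeR. All 20 mitosis genes still had an unadjusted p under 0.05 then.

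Mki67, the proliferation antigen Ki-67, read 300, 167 and 280 CPM in intracranial-only IgG libraries and 307, 397 and 330 CPM with therapy. With both tumors it read 231, 299 and 178 CPM with IgG and 124, 35.2 and 81.4 CPM with therapy. The groups did not overlap in either setting. The interaction was -2.03 ± 0.55 (adjusted p = 0.0336, edgeR), or -1.60 without the 2 IgG libraries, where it was not called (adjusted p = 0.0984, edgeR). It was made of 0.47 ± 0.39 for therapy in intracranial-only mice and -1.56 ± 0.39 with both tumors. Ccnb1, the cyclin that starts mitosis, had -2.35 ± 0.55, Top2a, which untangles DNA before chromosomes separate, -1.88 ± 0.43, and Cenpe, a motor protein that moves chromosomes along the spindle, -1.71 ± 0.38 (adjusted p = 0.0321 for each, edgeR).

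Lig1, the ligase that joins newly made DNA fragments, read 134, 109 and 117 CPM, then 170, 169 and 157 CPM with therapy, in intracranial-only mice, and 110, 161 and 86.1 CPM, then 69.1, 32.4 and 49.8 CPM with therapy, in mice with both tumors. Its interaction was -1.69 ± 0.38 (adjusted p = 0.0321, edgeR), and it was among the 2 replication genes still called without the 2 IgG libraries, at -1.35. Myc, a transcription factor that drives growth and ribosome production, read 88.8, 65.4 and 76.8 CPM, then 120, 78.8 and 108 CPM with therapy, in intracranial-only mice, and 67.2, 115 and 66.8 CPM, then 46.2, 24.7 and 30 CPM with therapy, in mice with both tumors. Its interaction was -1.71 ± 0.39, and -1.30 without the 2 IgG libraries. In both genes IgG replicate 2 with both tumors was the highest of its group. The 4 libraries lowest in the neuron list were the 4 highest in the mitosis list, and the part of the brain cell content in these interactions cannot be told apart from that of the groups.

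Since the mitosis genes moved together, their promoters are shown for 3 of the members with the smallest p. The sequences run from 250 bases before to 50 after the gene start and come from RefSeq (GRCm38.p6), with capitals for matches, on either strand, to 4 motifs: TTTGAA, the core of the cell cycle homology region through which many mitosis genes are timed, TTCNNNGAA, the gamma-activated element of interferon response genes, TTCNNTTTC, the core of the interferon-stimulated response element, and CACGTG, the E-box bound by Myc. Cenpe lies on the plus strand (chr3:135212313-135212612), Top2a on the minus strand (chr11:99024140-99024439) and Ccnb1 on the minus strand (chr13:100786437-100786736).
Cenpe: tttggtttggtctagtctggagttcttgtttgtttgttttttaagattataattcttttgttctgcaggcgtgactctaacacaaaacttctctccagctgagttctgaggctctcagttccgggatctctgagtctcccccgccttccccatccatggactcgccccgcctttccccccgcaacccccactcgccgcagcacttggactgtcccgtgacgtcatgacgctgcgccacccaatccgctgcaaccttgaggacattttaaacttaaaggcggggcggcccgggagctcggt
Top2a: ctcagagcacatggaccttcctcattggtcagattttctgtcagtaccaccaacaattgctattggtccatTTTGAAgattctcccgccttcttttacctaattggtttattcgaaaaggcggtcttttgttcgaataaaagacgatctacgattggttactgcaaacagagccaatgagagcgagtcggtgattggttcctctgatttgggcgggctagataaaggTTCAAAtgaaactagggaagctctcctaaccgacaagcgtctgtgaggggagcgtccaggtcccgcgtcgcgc
Ccnb1: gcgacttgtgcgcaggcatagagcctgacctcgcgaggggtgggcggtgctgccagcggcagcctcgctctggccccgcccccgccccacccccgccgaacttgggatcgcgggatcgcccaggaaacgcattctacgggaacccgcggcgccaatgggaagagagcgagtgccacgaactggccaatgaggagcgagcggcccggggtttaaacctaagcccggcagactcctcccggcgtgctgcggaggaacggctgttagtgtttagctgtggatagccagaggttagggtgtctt
Top2a held TTTGAA at 2 places and the other genes held none of the 4 motifs in this window. Of the 20 mitosis genes 16 had an entry, and 11 of these (68.8%) held TTTGAA, against 18.2% of all 27025 promoters in the table and 11.9% of the 11734 that belong to tested genes. CACGTG was in 1 of the 16. A match says only that these letters are there.

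The 10 largest lower interactions among called genes with at least 1 CPM in a group included genes of several roles, of which 9 are described. Car6, a secreted carbonic anhydrase, was the most deeply counted of the 10, at 271, 185 and 148 CPM and, with therapy, 346, 305 and 366 CPM in intracranial-only mice, and 127, 379 and 161 CPM and, with therapy, 87.6, 45.1 and 48 CPM in mice with both tumors. Its interaction was -2.63 ± 0.58 (adjusted p = 0.0321, edgeR), and -1.95 without the 2 libraries, where it was the 1 gene of the 10 still called.

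Hmga2, a chromatin protein of embryonic and tumor cells, had -2.56 ± 0.60, and Sapcd2, which takes part in spindle orientation, -2.74 ± 0.71. Mgam, an intestinal maltase, had -3.04 ± 0.83, Atp10b, a lipid flippase, -2.83 ± 0.72, and Pla2g3, a secreted phospholipase, -2.81 ± 0.76. Matn3, a cartilage matrix protein, had -2.43 ± 0.75 (adjusted p = 0.0436, edgeR), and Snord16a, a small nucleolar RNA, -2.46 ± 0.67. Btnl9, a butyrophilin-like membrane protein, had 2 reads over the therapy libraries with both tumors against 35 with IgG, a ratio of 18.4 with a 95% interval of 4.72 to 158 from counting error. The 3 therapy libraries with both tumors lay below all others in each of these genes except Btnl9 and Matn3.

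Genes of the melanoma lineage held no call. Of 14 melanocyte and pigment genes 0 were called by edgeR, 0 had an unadjusted p under 0.05 and the median was 0.01, or -0.03 without the 2 IgG libraries. Pmel, a structural protein of pigment granules, stood at 0.31 ± 0.25 and Dct, an enzyme of melanin synthesis, at 0.01 ± 0.25. Sox10, the lineage's transcription factor, had the smallest p of the list, at -0.25 ± 0.15 (adjusted p = 0.231). The pigment list level lay between 9.46 and 9.99 in the 12 libraries. Hypoxia and glycolysis genes held no call either, with 0 of 14, 0 at an unadjusted p under 0.05 and a median of 0.11.

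Among 12 targets of p53, the regulator of the damage response, Ccng1 was called lower at -0.78 ± 0.21 (adjusted p = 0.0336, edgeR), and the median was -0.25. This 1 call is a share below the 9.93% called lower over all tested genes. Ccng1 stood at -0.62 without the 2 IgG libraries and was not called (adjusted p = 0.1, edgeR). In the pericyte and fibroblast list Pdgfra, which also marks oligodendrocyte precursors, was called higher at 2.93 ± 0.76, 1 of 12 genes, also without the 2 IgG libraries, and the list median was -0.02. That share is below the 12.1% called higher over all tested genes. Red blood cell genes gave 0 calls of 5 and 0 at an unadjusted p under 0.05, and their level was not even within groups: it was 3.98, 0.30 and 2.47 in intracranial-only IgG libraries. Hemoglobin genes have near-identical copies that can share reads. Of 3 tested genes of choroid plexus and ependyma Foxj1, a factor of ciliated cells, was called higher at 2.47 ± 0.72, and was not called without the 2 IgG libraries, at 1.95 (adjusted p = 0.134, edgeR). The interactions of this list ran from -2.94 to 2.47, with a median of 0.30.

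Immediate early genes, which neurons and many other cells switch on within minutes of a stimulus, had 8 of 13 called higher, with a median of 2.11, and 5 with a median of 1.78 without the 2 IgG libraries. Jun, part of the AP-1 factor, read 46.4, 73.8 and 48.4 CPM and, with therapy, 35.5, 59.2 and 34.1 CPM in intracranial-only mice, and 39.9, 34 and 39.6 CPM and, with therapy, 83, 167 and 124 CPM in mice with both tumors. Its interaction of 2.11 ± 0.41 (adjusted p = 0.0321, edgeR) came mainly from mice with both tumors, where therapy stood at 1.72 ± 0.29 against -0.39 ± 0.29 in intracranial-only mice. Arc, a protein of active synapses, had 8.36 ± 1.66 and was low in the same 4 libraries as the neuron genes. Fos, the partner of Jun, was not called at 0.48 ± 0.67.

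**Figure D4:**
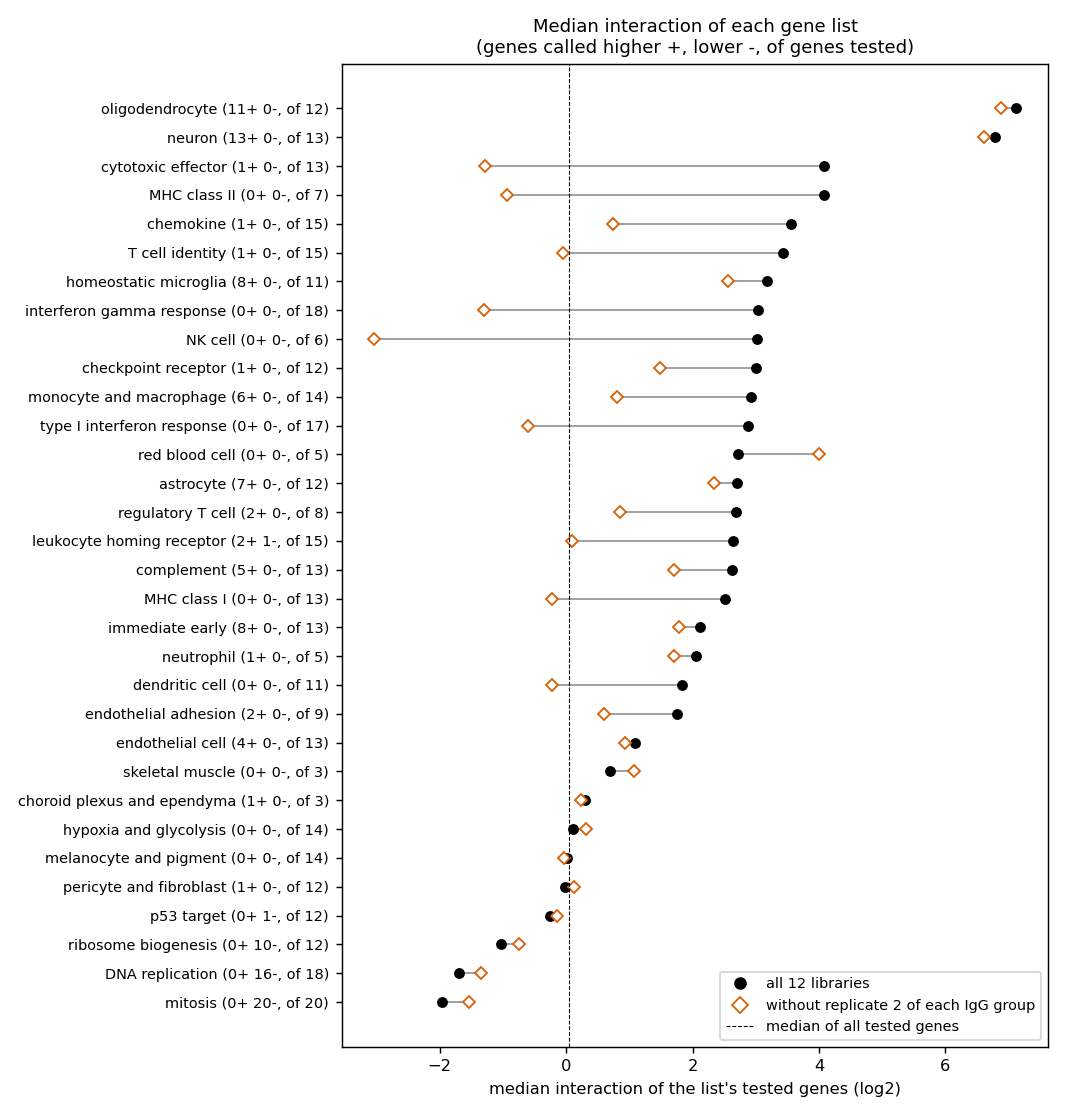
Median interaction (log2) of the tested genes of each list with at least 3 tested genes, with all 12 libraries (black) and without replicate 2 of each IgG group (open diamonds), and the calls with all libraries beside each name. The lists of DNA damage and repair, the IL-6 family and striatal neurons are not drawn. The neuron, oligodendrocyte, astrocyte, microglia and mitosis medians keep their sign and most of their size, whereas the interferon, MHC, NK cell and cytotoxic medians go from above 2 to below 0.

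The neuron list was low in the intracranial-only therapy libraries and in IgG replicate 2 with both tumors. In mice with both tumors its IgG and therapy ranges overlapped. With the mean log2 CPM of the neuron list added to the fit, 0 genes were called by edgeR, 629 had an unadjusted p under 0.05 and the smallest adjusted p was 0.911. In that fit the median was 0.33 for microglia, 0.32 for astrocytes, 2.23 for oligodendrocytes and -0.64 for mitosis. For immune lists it was 1.95 for complement, 2.89 for chemokines, 1.99 for macrophage genes, 1.80 for T cell identity and 0.89 for regulatory T cells. The red blood cell list stood at 3.63. Lists of brain cells and of immune cells thus both held low and higher medians. Ccl11 kept an interaction of 6.98 ± 1.48 there, with an unadjusted p of 0.000784, and Mki67 stood at -0.97 ± 0.85. The neuron list differs between the same groups as the interaction, so that the share of either in a gene's difference cannot be told apart.

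The number of calls depended on single libraries in edgeR. With 1 library left out in turn it was 0 in 8 of 12 cases, without intracranial-only IgG replicate 2 or 3, any of the 3 intracranial-only therapy libraries, IgG replicate 1 with both tumors, or therapy replicate 2 or 3 with both tumors. In these 8 cases the smallest adjusted p lay between 0.0526 and 0.0669, just past the threshold, and 5043 to 6138 genes had an unadjusted p under 0.05. In the other 4 cases 2448 to 4367 genes were called. DESeq2 called 4784 genes with all libraries and 3131 to 5250 with 1 left out. Voom with sample weights called 4740 with all libraries and 0 to 5389 with 1 left out, the 0 being without therapy replicate 3 with both tumors, where 5104 genes had an unadjusted p under 0.05.

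**Figure D5:**
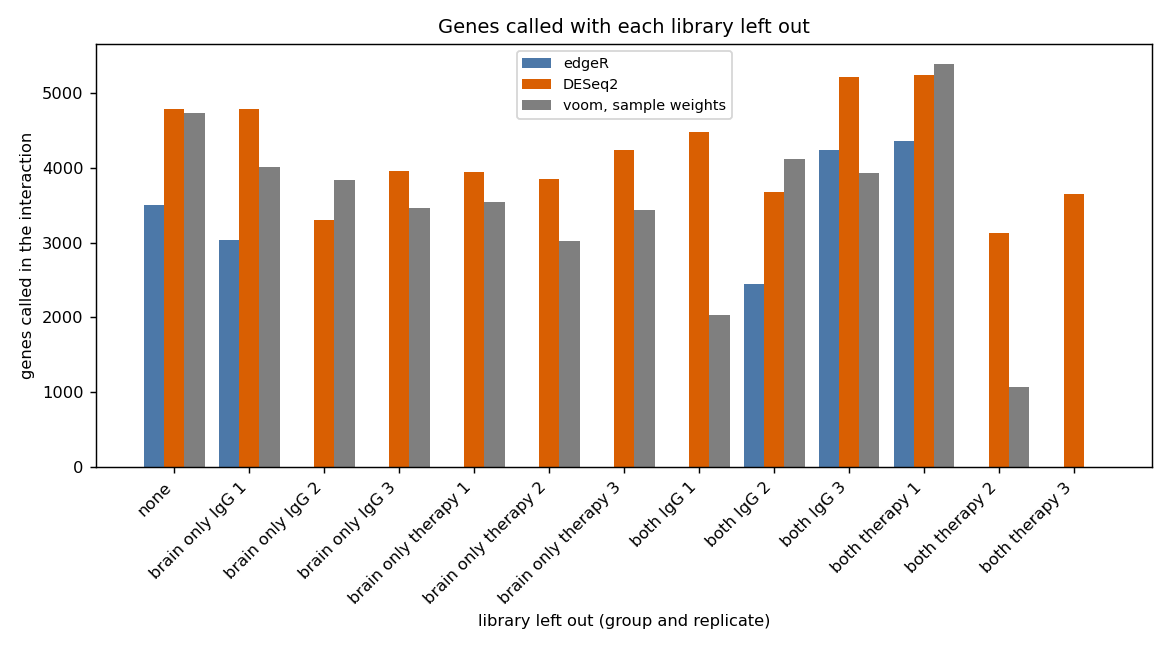
Number of genes called in the interaction (bars from 0) with no library or 1 library left out, for edgeR, DESeq2 and voom with sample weights. The edgeR count is 0 in 8 of the 12 cases, while the DESeq2 count stays between 3131 and 5250.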

How the data were processed

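RNA-seq was made from 12 intracranial tumors. Per the submitters' processing notes, the authors used TopHat2 2.0.12, Bowtie2 2.2.3 and HTSeq 0.6.1, with mm10 and GRCm38 listed as builds. The strand setting and the annotation release are not given in the sources used here, so reads of a gene and an overlapping antisense gene may be mixed. The deposited table of raw counts, 18427495 to 22294182 per library, is the basis of all results. The deposited FPKM values equal count over gene length and library total for the 16062 genes with reads in every library, within a relative deviation of 9.8e-15, and serve as an alternative. Of 47069 identifiers 46488 had a symbol in the annotation.

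Counts were filtered with filterByExpr (minimum count 10, minimum total 15), scaled by TMM factors and fitted with 4 group means over all 12 libraries in edgeR 4.0.16 (R 4.3.3), with the quasi-likelihood test. The biological coefficient of variation was 33.5%, with 8 residual and 2.6 prior degrees of freedom. Standard errors are the absolute log2 fold change over the square root of F. PCA and list levels used log2 CPM with a prior count of 2. Replicates of a group correlated at 0.917 to 0.986 and none matched within sampling noise. The script was tested on simulated data. Alternatives used DESeq2 1.42.0, limma 3.58.1 (voom, voom with sample weights, log2 of FPKM plus 1 or 0.1), other scaling and filtering, a neuron covariate, and left-out libraries.

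The gene lists, the named genes and the libraries left out were chosen with earlier results of these data known. Named genes are the 10 called in each direction with the largest log2 fold change and at least 1 CPM in a group, without unnamed gene models and receptor segments, the member with the smallest p of each of 34 lists, and a panel of 16 genes. Other list members are examples, and some genes are not reported here. A gene with 0 reads in a group is given against 3 reads over the group.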

Additional observations from a re-analysis of the deposited data

Results flagged for a closer look

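Every value here is a log2 interaction and was picked out because the therapy effects with and without the extracranial tumor differed by edgeR's test of that difference at an adjusted p under 0.05, as for 3505 genes in all. Among genes of the nervous system and glia the values were 11.08 for Miat, 10.21 for Sox1, 10.09 for Syndig1l, 10.06 for Cnih3, 10 for Otud7a, 9.99 for Cacna2d3, 9.98 for Lmo3, 9.97 for Jakmip2, 9.94 for Hapln2 and 9.85 for Slc7a10, which are fitted values that depend on the prior count, since the intracranial-only therapy group had 0 or 1 read. Cell markers of the same kind were Snap25 at 7.35, Mag at 7.10, Gfap at 5.54, Aqp4 at 4.08 and Tubb3 at 1.91. Among vessel, stromal and ciliated cell genes they were Pecam1 at 1.11, Cd34 at 1.10, Pdgfra at 2.93 and Foxj1 at 2.47.

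Among immune genes the values were 6.69 for Ccl11, 5.61 for Siglecf, 5.56 for Nos2, 5.28 for Cst7, 4.02 for Csf3r, 3.02 for Foxp3, 2.91 for Olfml3, 2.78 for Cxcr4, 2.57 for Layn and 2.26 for Lat, and the AP-1 gene Jun stood at 2.11. The lower values were -4.42 for Btnl9, -3.04 for Mgam, -2.83 for Atp10b, -2.81 for Pla2g3, -2.74 for Sapcd2, -2.63 for Car6, -2.56 for Hmga2, -2.46 for Snord16a and -2.43 for Matn3. Genes of division and growth stood at -2.03 for Mki67, -1.71 for Cenpe, -1.71 for Myc, -1.69 for Lig1 and -0.78 for Ccng1.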

How the results depend on the processing

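The main fit called 3505 genes (54.9% higher). In place of these, voom called 1584 (37.8% higher), of which 1573 were shared with the main fit. The neuron covariate gave 0 calls. Leaving out 2 libraries together gave 1674 (84.2% higher), of which 1570 were shared. Leaving out each library gave 0 to 4367, with 66.3% higher without IgG replicate 2 of mice with both tumors; the cause was not tested. The other alternatives, which were RLE size factors, no low-count filter, DESeq2, voom with sample weights and both FPKM scales, gave 3092 to 4784. Over 69 named genes and 21 alternatives, 941 of 1449 values kept direction and side of the threshold, 479 lost the call, 10 gained it and 19 changed sign. With 1 library left out the sign changed, always at the lower end and without intracranial-only IgG replicate 2, for Cd3e (-4.03 to 7.08), Ifng (-3.36 to 8.61), Gzmb (-3.21 to 9.12), Cxcl9 (-2.88 to 6.63), Klrb1c (-0.82 to 5.90), H2-Aa (-0.74 to 6.99) and Ido1 (-0.07 to 8.2), none of them called. Without the 2 IgG libraries it changed for Cd3e (-4.56), Ifng (-3.80), Gzmb (-3.74), Cxcl9 (-3.40), Klrb1c (-1.36), H2-Aa (-1.26), Ido1 (-0.62), H2-Ab1 (-0.48), B2m (-0.07) and Cd4 (-0.05). With the neuron covariate it changed for Pmel (-0.17) and for Snap25 (-0.25), itself a member of that list. No paired analysis was possible because the labels give no pairing or litter. Among the called higher genes 317 have 3 or fewer reads in a group, so that depth limits their size. Leaving out libraries in DESeq2 and in weighted voom, and setting low genes to 3 reads, were added after seeing the data.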

Other observations

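A list of 18 genes of DNA damage and repair, put together after the values were seen, had 14 called lower and a median interaction of -1.27, and 6 were called without replicate 2 of each IgG group. Mre11a, which trims broken DNA ends, read 53.1, 46 and 47.2 CPM in intracranial-only IgG libraries, 61.4, 63.7 and 56.6 CPM with therapy, 52.4, 52.6 and 43.1 CPM with IgG and both tumors, and 32.8, 23.6 and 29.3 CPM with therapy and both tumors. The therapy libraries were highest in the first setting and lowest in the second. Its interaction was -1.10 ± 0.19 (SE; adjusted p = 0.0321, edgeR), and that of Atr, a kinase that senses stalled replication, -1.14 ± 0.20. Brca1, another repair gene, was not called at 0.87 ± 0.50 and read 602, 609 and 503 CPM in therapy libraries with both tumors.

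Markers of striatal neurons, also chosen after their values were seen, had 6 of 8 called higher with a median of 4.70. Adora2a, an adenosine receptor of these neurons and of leukocytes, read 1.84, 2.06 and 1.83 CPM, then 0.277, 0.493 and 0.829 CPM with therapy, in intracranial-only mice, and 1.48, 0.859 and 1.88 CPM, then 7.96, 5.02 and 9.51 CPM with therapy, in mice with both tumors. Its interaction was 4.22 ± 0.60, and that of Penk, an opioid precursor, 4.32 ± 1.02. In the IL-6 family, chosen in the same way, 3 of 12 genes were called higher: the cytokine Clcf1 at 4.64 ± 0.72, the receptor chain Osmr at 1.67 ± 0.27 and the feedback inhibitor Socs3 at 2.04 ± 0.60, with a list median of 0.74. Socs3 was not called without replicate 2 of each IgG group. Clcf1 read 2.32, 1.03 and 2.2 CPM in intracranial-only IgG libraries and 0.166, 0.329 and 0.414 CPM with therapy.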
